A study of Mus musculus with 8 samples.

Results

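The 40 genes described here encode the transforming growth factor beta (TGF-beta) and bone morphogenetic protein (BMP) pathway: 9 ligand genes, 4 latency protein genes, 13 receptor genes, 8 SMAD genes and 6 inhibitor genes. Membership follows a gene's role in the pathway and uses no measured value. Overlapping ATAC-seq peaks of 8 libraries were merged into 90736 regions, and a region was assigned to the mm10 protein-coding gene whose span held its midpoint, or to the nearest gene span within 50 kb. Of the 79474 regions assigned to a gene, 360 belonged to these 40 genes.

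TGF-beta family ligands bind pairs of type II and type I serine/threonine kinase receptors. The type II receptor activates the type I receptor, which phosphorylates receptor SMADs, and these join the common SMAD, Smad4, and enter the nucleus to regulate genes. TGF-beta is secreted in a latent complex held in the matrix by latency proteins, and inhibitory SMADs, co-repressors and ubiquitin ligases damp the signal. In bone marrow, TGF-beta is known for keeping haematopoietic stem cells (HSC) quiescent.

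ATAC-seq, in which a transposase tags accessible DNA, was run on bone marrow HSC labelled as long-term HSC in the protocol. The 4 groups, of 2 libraries each, were T1 and T2 cells of Vav1-cre iMOS Bcl11a-MUT mice (MUT T1 and MUT T2) and T1 and T2 cells of Vav1-cre iMOS Bcl11a-WT mice (WT T1 and WT T2), all aged 2 to 3 months. Bcl11a encodes a zinc-finger transcriptional repressor, and the study asked what it does inside HSC and what its overexpression does to neighbouring wild-type HSC. All groups carried Vav1-cre, which acts across blood cells and is not confined to HSC. What MUT denotes, what separates T1 from T2 and whether the libraries of a group came from separate animals are not given in the sources used here. Any p-value therefore measures only the spread between these libraries, which may be technical.

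The deposited lists held 62232 to 74785 peaks per library. Depth, recovered as the genome background of each library, came to 3.38 and 2.03 fragments per position for MUT T1 (replicates 1 and 2), 3.21 and 3.10 in MUT T2 cells, 3.24 and 3.29 in WT T1 cells, and 2.45 and 1.89 in WT T2 cells. The WT T2 libraries and MUT T1 replicate 2 were thus shallower than the other 5. The labelled cell type was checked at promoters: those of 9 of 9 HSC marker genes with a tabled start site were called in all 8 libraries and those of 3 erythroid and 3 T-cell genes in none. Of 3 neutrophil genes Mpo alone had calls, in 2 libraries, and of 2 B-cell genes Ebf1 was called in 3 libraries and Cd79a in none. All 3 megakaryocyte genes (Pf4, Itga2b and Gp9), the endothelial gene Kdr and the stromal gene Lepr were also called in every library, the stromal gene Cxcl12 in 7 and Pdgfra in none, and their part in the results was not tested. "Called" means that a peak of the library overlapped the region by at least 1 bp. A region missing from a list may be accessible below the peak caller's threshold, and the libraries with a lower background held fewer calls.

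Promoter sequences of 6 members are shown because they span the range found at the start sites described next. The 2 most accessible windows are those of Acvr1c and Bmpr1b. Very high G+C content marks 2 windows, Acvr1, called in all 8 libraries, and Ski, called in 2. A SMAD or AP-1 sequence is in 2 others (Smad6 and Ltbp3). Each sequence runs 5′ to 3′ on the gene's strand from 250 bases before to 50 after the RefSeq start (GRCm38.p6). They lie at chr2:58324758-58325057 (Acvr1c, minus strand), chr3:141931371-141931670 (Bmpr1b, minus), chr2:58566779-58567078 (Acvr1, minus), chr4:155222486-155222785 (Ski, minus), chr9:64022010-64022309 (Smad6, minus) and chr19:5740650-5740949 (Ltbp3, plus). Capitals mark matches on either strand. All 6 sequences were searched for GGGCGG (a GC box), found in Acvr1, Ski and Smad6, and for CAGACA, found in Ltbp3 alone. Also marked are GTCTAGA in Smad6 and, in Ltbp3, TGACTCA, the same motif as its reverse complement TGAGTCA. In Smad6 a GTCTAGA match overlaps its own reverse complement, in Ltbp3 TGAGTCA overlaps CAGACA, and in Acvr1 2 GC boxes overlap. Acvr1c and Bmpr1b hold none of the motifs searched.
Acvr1c: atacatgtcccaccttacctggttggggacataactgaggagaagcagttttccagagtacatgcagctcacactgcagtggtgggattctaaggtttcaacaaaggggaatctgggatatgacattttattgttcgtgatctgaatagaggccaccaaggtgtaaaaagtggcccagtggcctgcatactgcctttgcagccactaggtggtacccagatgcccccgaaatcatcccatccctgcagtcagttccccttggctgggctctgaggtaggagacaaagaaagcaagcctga
Bmpr1b: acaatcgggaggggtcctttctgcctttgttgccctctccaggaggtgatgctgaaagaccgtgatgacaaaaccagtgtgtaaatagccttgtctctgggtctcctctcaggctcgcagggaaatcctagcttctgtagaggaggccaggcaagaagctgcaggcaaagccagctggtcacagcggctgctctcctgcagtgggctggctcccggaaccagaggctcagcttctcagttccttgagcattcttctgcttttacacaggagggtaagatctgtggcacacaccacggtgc
Acvr1: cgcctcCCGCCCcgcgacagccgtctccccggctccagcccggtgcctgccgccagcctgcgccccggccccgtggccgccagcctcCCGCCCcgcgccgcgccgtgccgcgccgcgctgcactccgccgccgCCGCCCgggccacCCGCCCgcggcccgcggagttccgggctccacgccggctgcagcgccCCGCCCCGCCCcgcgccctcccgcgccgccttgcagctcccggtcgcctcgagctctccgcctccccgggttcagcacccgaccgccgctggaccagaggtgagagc
Ski: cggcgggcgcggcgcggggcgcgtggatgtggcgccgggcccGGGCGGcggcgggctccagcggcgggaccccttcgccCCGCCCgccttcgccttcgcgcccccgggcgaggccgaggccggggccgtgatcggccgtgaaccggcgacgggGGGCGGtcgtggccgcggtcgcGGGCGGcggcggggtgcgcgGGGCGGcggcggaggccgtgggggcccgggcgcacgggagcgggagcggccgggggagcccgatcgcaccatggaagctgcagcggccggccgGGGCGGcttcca
Smad6: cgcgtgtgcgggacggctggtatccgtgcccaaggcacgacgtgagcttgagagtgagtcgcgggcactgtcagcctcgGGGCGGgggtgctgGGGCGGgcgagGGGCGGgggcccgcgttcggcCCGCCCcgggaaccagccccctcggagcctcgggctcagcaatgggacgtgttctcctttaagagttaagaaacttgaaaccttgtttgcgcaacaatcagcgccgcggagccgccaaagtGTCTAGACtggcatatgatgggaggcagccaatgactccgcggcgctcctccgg
Ltbp3: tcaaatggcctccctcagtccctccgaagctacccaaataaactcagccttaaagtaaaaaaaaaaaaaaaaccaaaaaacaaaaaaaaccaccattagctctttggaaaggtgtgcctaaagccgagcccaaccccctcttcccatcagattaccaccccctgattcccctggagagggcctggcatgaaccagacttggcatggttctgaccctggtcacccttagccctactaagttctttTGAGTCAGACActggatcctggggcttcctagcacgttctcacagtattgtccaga

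Accessible chromatin was found at every member. All 40 genes had at least 1 region called in all 8 libraries, against 73.3% of the 21627 protein-coding genes. They held a median of 8 regions per gene, against 2 over all genes, and their number per gene varied from 2 at Tgfb3 to 26 at Tgfbr3. Because regions were assigned by gene span, a longer gene can hold more of them, also of those called throughout. Member spans ran from 6.73 kb (Fst) to 387 kb (Ltbp1). The part of gene length in both comparisons with all genes was not tested. Of the 360 regions, 190 were called in all 8 libraries (52.8%, exact 95% binomial interval 47.5 to 58.0%, which covers counting error only and takes regions as independent), against 56.1% of all gene-assigned regions. Another 50 were called in a single library (13.9%, against 11.2%). Regions called in 1 library had a median width of 260 bp and those called in all 8 a median of 997.5 bp. Inside the gene span lay 239 of the 360 regions (66.4%, against 66.3%); whether they are exonic or intronic was not analysed here.

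Fold enrichment, the authors' own ratio of a peak's summit to its local background, is used to describe peaks within a list. Its median over the 190 regions called in all libraries was 6.34, against 7.58 over all gene-assigned regions of that kind. Peak summits in shallower libraries carried higher folds: the median over called member regions was 5.10 and 6.002 in MUT T1 cells, 5.47 and 5.27 in MUT T2 cells, 5.37 and 5.55 in WT T1 cells, and 5.84 and 6.22 in WT T2 cells. Folds are therefore set side by side per library and not compared between groups.

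Ligand genes held 54 regions, 28 of them called in every library (51.9%). Bmp7, a BMP ligand, had most of these (7 of its 11 regions), followed by Inhba, the activin A subunit gene, with 6 of 9. Bmp4, a ligand that patterns early mesoderm, had 4 of 9 and Bmp2, a bone-inducing ligand, 3 of 5. The TGF-beta genes themselves had few regions: 2 of 4 at Tgfb1, 2 of 4 at Tgfb2 and 1 of 2 at Tgfb3 were called throughout. Bmp6, which controls iron balance through hepcidin, had 1 of 4, and Inhbb, the activin B subunit gene, 2 of 6. The strongest ligand region lay downstream of Tgfb2, 130 kb from its start, at chr1:186575440-186576284. It had a median fold of 10.6 (lowest 8.02, highest 12.5 over the 8 libraries).

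Latency protein genes held 33 regions, 19 of them called throughout (57.6%). Ltbp1, whose product anchors latent TGF-beta to the matrix, had 8 of 14, Ltbp4 5 of 8, Ltbp2, which does not bind latent TGF-beta, 3 of 8, and Ltbp3 3 of 3. The region with the highest median fold of all members was inside Ltbp2 at chr12:84784299-84785203 (13.4, lowest 11.9, highest 17.2).

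Receptor genes held the most regions, 125, and the lowest share called throughout, 58 (46.4%). By class this was 28 of 54 for type I receptors (51.9%), 17 of 41 for type II receptors (41.5%) and 13 of 30 for co-receptors (43.3%). Among type I receptors, which carry the signal to SMADs, Tgfbr1, the TGF-beta receptor, had 6 of 8, the BMP receptor Bmpr1b 5 of 9, the endothelial receptor Acvrl1 5 of 7, and the activin and nodal receptors Acvr1b and Acvr1c 4 of 10 and 4 of 6. Acvr1, a BMP and activin A receptor, had 3 of 9, and Bmpr1a, a BMP receptor, 1 of 5. Bmpr1b held the strongest type I region, at chr3:141862348-141863391 (median fold 13.1, lowest 9.07, highest 14.7). Of the ligand-binding type II receptors, Tgfbr2 had 8 of 17, the BMP receptor Bmpr2 4 of 10, and the activin receptors Acvr2a and Acvr2b 3 of 10 and 2 of 4. The strongest type II region was inside Tgfbr2 at chr9:116144951-116146469 (10.005, lowest 8.11, highest 11.5). Tgfbr3, or betaglycan, which presents TGF-beta2 to its receptors, had 11 of 26, the strongest at chr5:107120759-107121809 (9.18, lowest 8.38, highest 11.4). Endoglin (Eng), a co-receptor also used to mark HSC, had 2 of 4.

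SMAD genes held 98 regions, with 56 called throughout (57.1%). Smad3, which transmits TGF-beta and activin signals, had 16 of 22, the most of any member. Its partner Smad2 had 4 of 7. Among the BMP-activated SMADs, Smad1 had 8 of 16, Smad5 1 of 3 and Smad9 2 of 3. Smad1 held the strongest region of this class, at chr8:79350047-79351151 (median fold 11.01, lowest 9.02, highest 12.9). Smad4, the partner shared by all of them, had 4 of 12, the strongest at chr18:73674072-73674708 (10.6, lowest 9.88, highest 12.2). Of the inhibitory SMADs, Smad6, which restrains BMP signals, had 12 of 21 and Smad7, which restrains both branches, 9 of 14. The strongest of these was assigned to Smad6, at chr9:63909346-63910118 (10.7, lowest 8.81, highest 11.4). It lies downstream of the gene, 112 kb from its start.

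Inhibitor genes held 50 regions, of which 29 (58%) were called throughout. Ski, a co-repressor that binds SMADs, had 10 of 13 and its relative Skil 4 of 9. Those of Skil include the strongest inhibitor region, outside the gene at chr3:31083682-31084637 (9.33, lowest 7.71, highest 10.2). The ubiquitin ligases Smurf1 and Smurf2, which mark receptors and SMADs for degradation, had 4 of 9 and 4 of 6. Tgif1, a homeobox co-repressor of SMADs, had 4 of 8, and Fst, which binds and neutralises activins, 3 of 5.

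**Figure D1:**
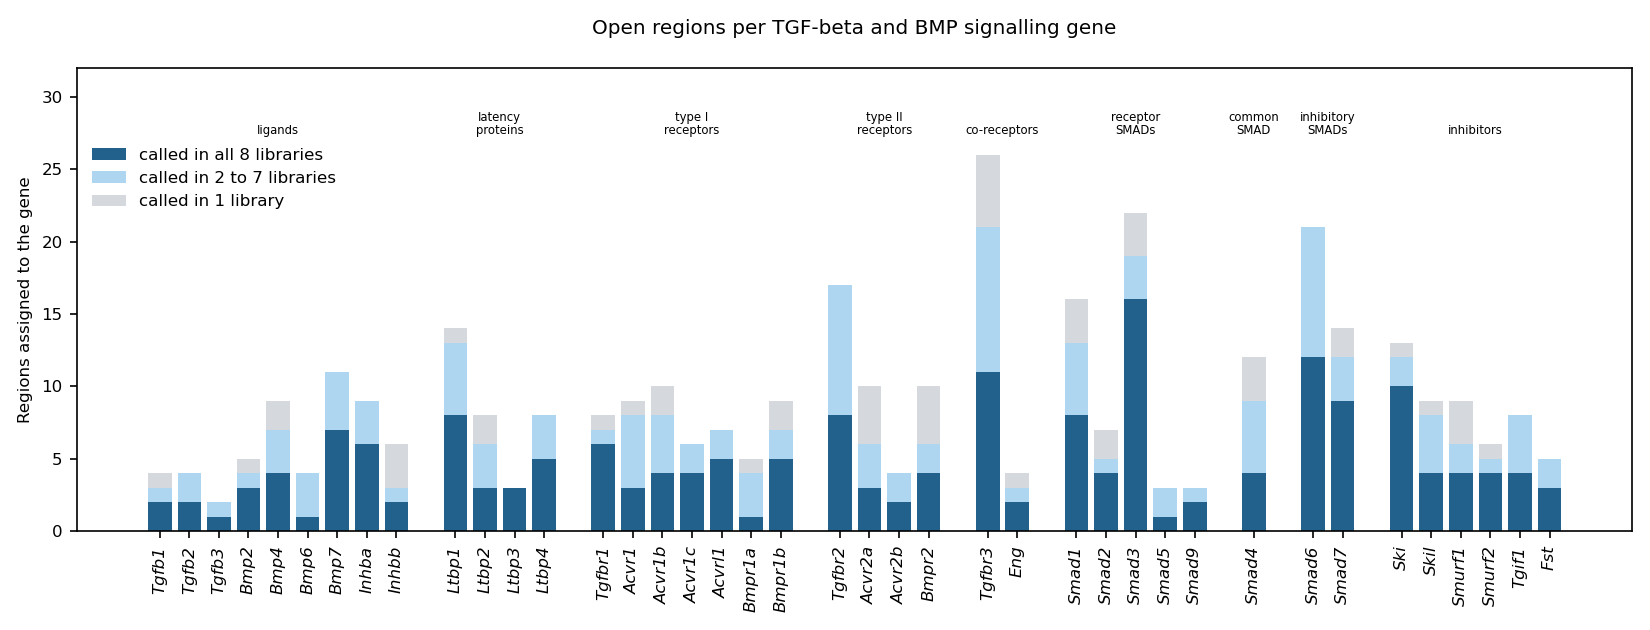
Number of merged regions assigned to each of the 40 genes, ordered by role, with the part called in all 8, in 2 to 7 and in 1 library stacked in each bar. Tgfbr3 has the tallest bar (26 regions), Smad3 the largest number called in all 8 (16), and every gene has at least 1 such region.

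Other genes of the pathway, a list of 36 targets, antagonists and latency partners such as Id1, Nog and Itgav, had 203 regions, of which 126 (62.1%) were called throughout; 34 of these 36 genes had such a region.

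Start sites were tabled for 30 of the 40 members (43 windows of 300 bases), and each gene is described by its most widely called window. The window was called in all 8 libraries for 26 of 30 genes (86.7%), against 60.8% of 17273 genes. These were all 11 receptors and all 5 SMADs with a tabled start, 5 of 6 ligands, 3 of 4 inhibitors and 2 of 4 latency proteins. The member windows had a median G+C content of 64.3%, against 56.7% for all 21044 windows, and a median CpG ratio (observed over that from base composition) of 0.751, against 0.574. Over all genes the share of windows called throughout differed with G+C content, from 17.0% of windows under 50% G+C to 87.9% of those from 60 to 70%, so the members' share stands beside a base composition that differs too; its part was not tested. Regions over a member's start site were called in all libraries in 29 of 31 cases (93.5%), the other regions of those genes in 110 of 231 (47.6%).

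The Acvr1c start printed above had folds of 10.8 and 12.3 in MUT T1 cells, 12.8 and 10.6 in MUT T2 cells, 11.2 and 11.8 in WT T1 cells, and 11.8 and 11.4 in WT T2 cells. The same gene has a second tabled start 5′ of it, at chr2:58357709-58358008, with 8.34 and 8.84 in MUT T1 cells, 7.20 and 8.61 in MUT T2 cells, 7.48 and 6.82 in WT T1 cells, and 8.78 and 10.9 in WT T2 cells. Both starts were thus open in every library, and the inner one had the higher fold in each. Bmpr1b had 12.8 and 9.79 in MUT T1 cells, 10.3 and 10.5 in MUT T2 cells, 10.5 and 9.84 in WT T1 cells, and 11.3 and 12.5 in WT T2 cells, while a further tabled Bmpr1b start at chr3:141982215-141982514 was called in no library. Bmpr1b and Acvr1c windows have CpG ratios of 0.258 and 0.105, against the members' median of 0.751.

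Tgfbr2, the type II receptor that binds TGF-beta, had promoter folds of 6.58 and 8.47 in MUT T1 cells, 7.09 and 6.92 in MUT T2 cells, 7.03 and 7.38 in WT T1 cells, and 8.19 and 8.62 in WT T2 cells. Tgfb1, the main TGF-beta of blood cells, was lower throughout, with 3.02 and 4.06 in MUT T1 cells, 3.26 and 3.13 in MUT T2 cells, 2.95 and 2.98 in WT T1 cells, and 3.67 and 3.61 in WT T2 cells. In both genes the MUT and WT ranges overlap, and the shallow libraries hold the highest values. Among the other genes whose window was called in all libraries, median folds lay between 3.30 (Tgif1) and 8.75 (Inhba).

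The best window of 4 genes was not called throughout. The Bmp4 window was called in MUT T1 replicate 1 (2.35), MUT T2 replicate 2 (2.58) and both WT T1 libraries (2.48 and 2.83). It was called in no WT T2 library. The merged region that overlaps it, chr14:46389923-46390753, was called in 7 libraries, among them WT T2 replicate 1 (2.58). The Ski window, with 85.3% G+C, was called in MUT T1 replicate 2 (2.10) and WT T2 replicate 2 (2.29), the 2 shallowest libraries. The merged region over the Ski start, chr4:155221667-155222561, was nevertheless called in all 8 libraries (1.91 to 2.31). In the libraries without a window call, its peak did not reach the window. A further Ski region at −0.919 kb from the start was also called in all 8 (3.57 to 4.99). The Acvr1 window, with 83.7% G+C, was called everywhere. The Acvr1 folds were 7.57 and 7.32 in MUT T1 cells and 7.51 and 7.68 in MUT T2 cells. In WT T1 cells they were 6.38 and 6.93, and in WT T2 cells 8.47 and 9.88. Ltbp3 and Ltbp4 windows were called in no library, although a region centred 1.36 kb (Ltbp3) and one centred 1.06 kb (Ltbp4) from a tabled start was called in all 8, with median folds of 4.35 and 2.82. Over all windows of 80% G+C or more, and not only the best of a gene, 3 of 6 member windows were called throughout, against 92.2% of 282 windows in all. The others were the Ski window and the Ltbp4 windows chr7:27333599-27333898 and chr7:27333614-27333913. The Ltbp4 windows overlap, so the member windows are not independent.

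**Figure D2:**
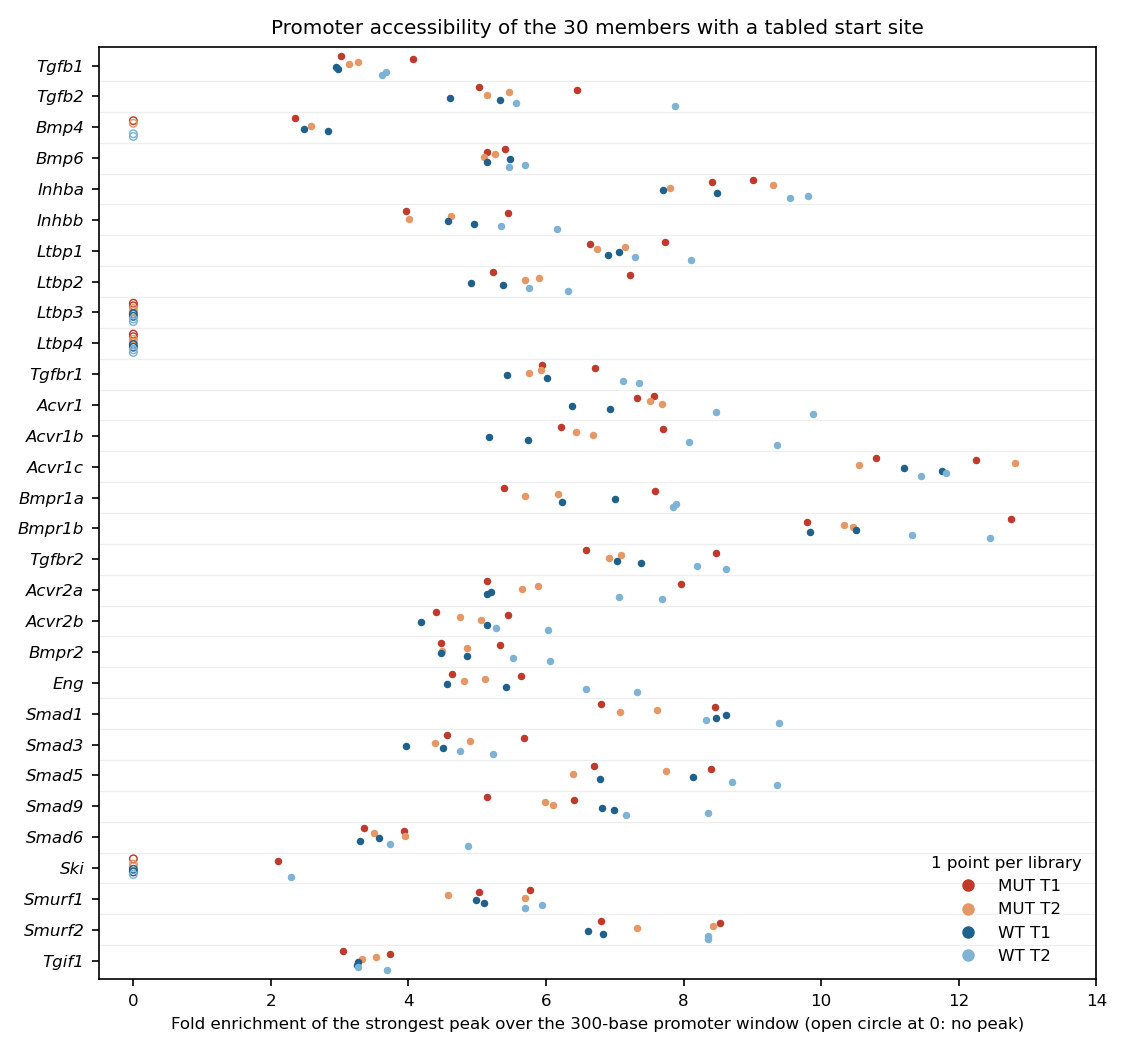
Fold enrichment of the strongest peak over the promoter window (x axis) of the 30 members with a tabled start (rows), with 1 point per library coloured by group and open circles at 0 for libraries without a peak. Acvr1c (10.6 to 12.8) and Bmpr1b (9.79 to 12.8) lie farthest to the right, and Ltbp3 and Ltbp4 have no peak in any library.

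Of the motifs searched on both strands in these windows, the GC box GGGCGG was in 65.1% of member windows and 46.7% of all windows. GGCGCC was in 25.6% of member and 15.5% of all windows, and the SMAD-related sequence CAGACA in 20.9% of member windows, against 18.5% of all. GTCTAGA, from the palindrome that SMADs bind, was in 2.33% of member windows, against 2.09% of all. TGTGGT, a RUNX-type sequence, was in 2.33% of member windows and 14.8% of all, and AGATAA, the type of sequence that GATA factors bind, in 4.65% and 9.68%. CTTCCGG, an ETS-type sequence, was in 4.65% against 11.7%, and TGACTCA in 2.33% against 4.69%. With 43 member windows, 2.33% is 1 window (Smad6 for GTCTAGA, Ltbp3 for TGACTCA), and these counts describe letters only.

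Comparisons between groups used calls. A region counts as gained where all libraries of the group named first called it and no library of the other did, and as lost where it is the other way round. An exact permutation test of a single region, with 2 libraries a side, cannot go below p = 0.333, so no such test was run and the counts are read against the share of all 79474 gene-assigned regions that met the same rule. Under other settings, or with a library left out, only member regions were counted. Those counts have no share of all regions beside them. Member regions followed the depth of a library much as all regions did: 285 and 241 of 360 were called in MUT T1 (79.2% and 66.9%), 290 and 277 in MUT T2 cells (80.6% and 76.9%), 276 and 275 in WT T1 cells (76.7% and 76.4%), and 254 and 236 in WT T2 cells (70.6% and 65.6%). The corresponding shares of all gene-assigned regions were 81.2% and 69.7% in MUT T1 cells, 81.8% and 78.0% in MUT T2 cells, 78.6% and 79.8% in WT T1 cells, and 73.5% and 68.2% in WT T2 cells. In every library the members' share was lower than that of all regions.

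**Figure D3:**
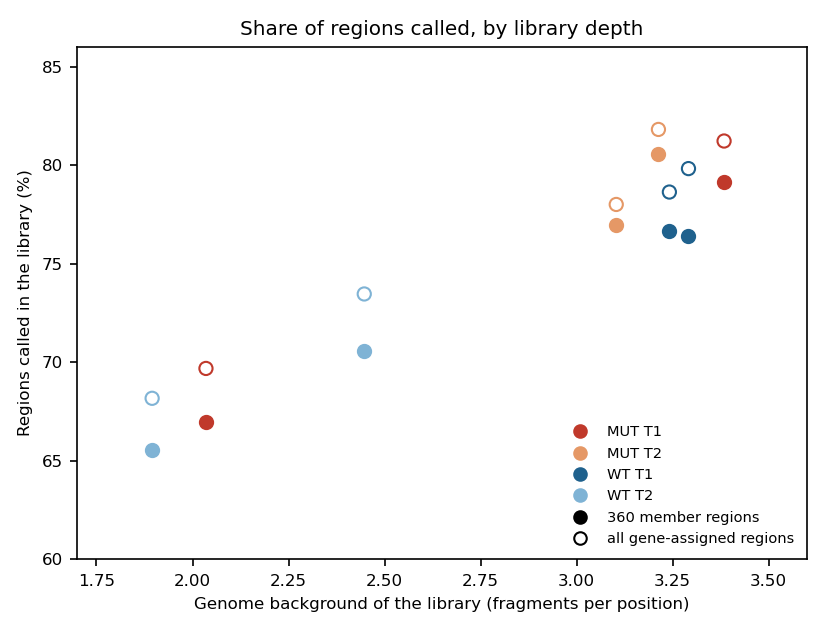
Share of regions called in each library (y axis, %) against its genome background (x axis, fragments per position), filled for the 360 member regions and open for all gene-assigned regions. The 3 libraries with the lowest background called 65.6 to 70.6% of member regions, the other 5 76.4 to 80.6%.

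Between MUT T1 and WT T1 cells, 1 member region was gained in MUT T1 (0.278%, against 1.19% of all regions) and 6 were lost (1.67%, against 2.13%). The gained region lies in Tgfbr2 at chr9:116087888-116088255, 87.3 kb from its start, with folds of 3.62 and 5.34 in MUT T1 cells and none in WT T1. WT T2 replicate 1 also called it (3.53). The lost regions were at Acvr1, Acvr1b, Tgfbr2, Tgfbr3, Tgfb3 and Ski, so 4 of the 6 belonged to receptors. The Acvr1 region, chr2:58477090-58477402, was called in WT T1 with folds of 9.73 and 9.25 and summits of 54 and 55 fragments, and in no library of MUT T1, MUT T2 or WT T2. It lies inside the gene, 89.6 kb from the start, and by the lower of its folds in the group that held it was the strongest member region gained or lost in any comparison. The Acvr1b region, chr15:101195461-101195753, was likewise called in WT T1 alone, at 2.91 and 2.77. Regions called in WT T1 alone were 0.556% of member regions, against 0.501% of all. The other lost regions were also called in at least 1 MUT T2 library: Tgfbr2 chr9:116137619-116137990 had 4.01 and 4.39 in MUT T2 cells and 3.62 and 4.31 in WT T1 cells, and Tgfbr3 chr5:107202868-107203530 had 3.17 and 2.69 in MUT T2 cells and 2.70 and 3.23 in WT T1 cells. Both were also called in WT T2 replicate 1 (4.12 and 2.99). Tgfb3 chr12:86076493-86076828 was called in MUT T2 replicate 2 (2.499) and in WT T1 (2.38 and 2.36), and Ski chr4:155197814-155198150 in MUT T2 (2.54 and 2.49) and WT T1 (2.51 and 3.25). In MUT T1, 8 regions were gained with each list kept to its strongest 62232 peaks, 5 after the summits of called peaks were thinned to the lowest genome background, with no peaks called anew, and 2 with a stricter q-value. With a library left out the rule needs fewer calls: 7 were gained and 27 lost without MUT T1 replicate 1, 21 and 7 without MUT T1 replicate 2, 7 and 20 without WT T1 replicate 1, and 7 and 23 without WT T1 replicate 2.

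Between MUT T2 and WT T2 cells, 17 member regions at 16 genes were gained in MUT T2 (4.72%, against 3.82% of all regions) and 0 were lost (against 0.429%). They were spread over the roles: 3 ligand, 2 latency, 4 receptor, 5 SMAD and 3 inhibitor regions. The Smad1 region chr8:79339538-79340075, inside the gene, had folds of 7.53 and 6.26 in MUT T1 cells, 8.07 and 9.26 in MUT T2 cells, and 8.28 and 7.73 in WT T1 cells, with no peak in WT T2. At Tgfb2, chr1:186712598-186713248, at −6.93 kb from the start, had 5.25 and 6.59 in MUT T1 cells, 8.54 and 7.07 in MUT T2 cells, and 5.89 and 6.76 in WT T1 cells. At Smad6, chr9:64058157-64058690, at −36.4 kb, had 3.86 and 4.10 in MUT T1 cells, 4.67 and 4.21 in MUT T2 cells, and 3.78 and 4.10 in WT T1 cells. These 3 regions were called in every library outside WT T2 (0.833% of member regions, against 0.622% of all). The background was 2.03 in MUT T1 replicate 2, and 2.45 and 1.89 in the WT T2 libraries. The part of depth in these calls was not tested.

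A second Acvr1 region, chr2:58480611-58481060, had 6.21 and 6.89 in MUT T2 cells and no peak in WT T2; it was also called in MUT T1 replicate 1 (5.55) and in WT T1 (5.77 and 5.65). Both Acvr1 regions lie within the same gene body, this one 85.99 kb from the start. Tgfbr3 chr5:107101038-107101528 had 4.75 and 5.72 in MUT T2 cells and 5.85 in WT T1 replicate 1, with no other call. Bmp4 chr14:46375791-46376202, 14.7 kb from the start and downstream of the gene, had 4.53 and 4.08 in MUT T1 cells, 4.64 and 4.76 in MUT T2 cells and 4.13 in WT T1 replicate 1. Acvr1c chr2:58281116-58281516 had 4.31 and 5.45 in MUT T1 cells, 4.72 and 4.55 in MUT T2 cells and 4.17 in WT T1 replicate 2. The Tgfbr3, Bmp4 and Acvr1c regions were thus called in 1 WT T1 library each and in no WT T2 library. Smad3 chr9:63785451-63786015, at −27.7 kb from the start, had 4.19 and 5.93 in MUT T1 cells, 5.21 and 4.34 in MUT T2 cells and 3.70 in WT T1 replicate 1. Tgfbr2 chr9:116138561-116138893 had 3.91 and 3.91 in MUT T2 cells and 3.997 in WT T1 replicate 2, with no call in MUT T1 or WT T2. Ltbp2 chr12:84873536-84874024 had 4.29 in MUT T1 replicate 1, 4.16 and 3.64 in MUT T2 cells and 4.14 in WT T1 replicate 2. The other 7 gained regions were weaker, with a smaller MUT T2 fold of 2.04 to 3.56, and lay at Smad7 (2 regions), Ltbp4, Tgif1, Ski, Tgfb1 and Skil. The Tgif1 region chr17:70832639-70833046 was called in MUT T2 alone (3.42 and 3.30). Regions called in MUT T2 alone were 0.278% of member regions, against 0.398% of all. WT T2 holds 2 of the 3 shallowest libraries, and with each list kept to its strongest 62232 peaks the counts were 8 gained and 8 lost, and 8 of the 17 regions were gained again. After the same thinning of summits, 14 of the 17 regions were still gained, and 5 member regions were lost. Leaving out a library gave 31 gained and 8 lost without MUT T2 replicate 1, 37 and 4 without MUT T2 replicate 2, 39 and 4 without WT T2 replicate 1, and 29 and 9 without WT T2 replicate 2.

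Between MUT T1 and MUT T2 cells, 4 member regions were gained in MUT T1 (1.11%, against 0.605% of all regions) and 9 were lost (2.5%, against 1.74%). The gained regions were that of Tgfbr2 at chr9:116087888-116088255, described above, and 1 each at Tgfbr1, Bmp7 and Smad4. Tgfbr1 chr4:47378692-47379096 had 5.62 and 5.73 in MUT T1 cells and none in MUT T2, with 4.26 and 5.55 in WT T1 cells and 5.52 in WT T2 replicate 1. Bmp7 chr2:172949021-172949487 had 4.30 and 7.15 in MUT T1 cells, 5.89 and 3.96 in WT T1 cells and 5.18 in WT T2 replicate 2. Smad4 chr18:73693429-73694007 had 4.65 and 5.01 in MUT T1 cells, 3.39 and 3.93 in WT T1 cells and 4.69 in WT T2 replicate 1. The gained Tgfbr1, Bmp7 and Smad4 regions were thus missing from both MUT T2 libraries and from 1 WT T2 library.

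Of the 9 lost regions, 4 were receptor regions and 4 inhibitor regions. The receptor regions were the 2 of Tgfbr2 (chr9:116137619-116137990 and chr9:116138561-116138893) and the 2 of Tgfbr3 already given, each absent from both MUT T1 libraries. At the inhibitors they were Ski chr4:155197814-155198150, Tgif1 chr17:70832639-70833046, and 2 of Skil: chr3:31089804-31090263, with 2.04 and 2.44 in MUT T2 cells and 2.43 in WT T1 replicate 1, and chr3:31104744-31105330, with 3.45 and 3.91 in MUT T2 cells, 3.61 in WT T1 replicate 2 and 3.03 in WT T2 replicate 1. A Smad4 region, chr18:73709392-73709835, had 3.76 and 4.51 in MUT T2 cells and 5.53 in WT T2 replicate 2. With lists of equal length the counts were 7 gained and 3 lost. Without MUT T1 replicate 1 they were 9 and 35, without MUT T1 replicate 2 they were 20 and 13, without MUT T2 replicate 1 they were 10 and 21, and without MUT T2 replicate 2 they were 8 and 29.

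Between WT T1 and WT T2 cells, 11 member regions at 9 genes were gained in WT T1 (3.06%, against 3.82% of all regions) and 2 were lost (0.556%, against 0.605%). This comparison and that of MUT T2 with WT T2 share both WT T2 libraries, so a region missing from WT T2 can appear in each. The gained regions with the highest folds in WT T1 were those of Acvr1 (9.73 and 9.25), Smad1 (8.28 and 7.73), Tgfb2 (5.89 and 6.76) and the second Acvr1 region (5.77 and 5.65). Smad7 chr18:75353600-75354053 had 4.79 and 4.89 in WT T1 cells, with 5.27 in MUT T1 replicate 2 and 3.56 and 5.12 in MUT T2 cells. The Smad6 region had 3.78 and 4.10 in WT T1 cells. At lower folds were the Acvr1b region (2.91 and 2.77), Tgfb1 chr7:25705759-25706222 (2.52 and 2.54), the Ski region (2.51 and 3.25), a second Smad7 region at chr18:75363151-75363649 (2.75 and 2.38) and the Tgfb3 region (2.38 and 2.36). Both lost regions lay upstream of their gene. Ltbp2 chr12:84882516-84883057 was absent from WT T1 and had 5.22 and 4.84 in WT T2 cells, with 4.11 in MUT T1 replicate 1 and 4.60 and 4.90 in MUT T2 cells. Tgif1 chr17:70882983-70883855 was absent from WT T1 and had 3.77 and 4.01 in WT T2 cells, with 3.40 in MUT T1 replicate 1 and 6.17 in MUT T2 replicate 1. With lists of equal length 9 were lost, with thinned summits 4, and within 10 kb of a gene 1; with an overlap of at least 0.5 of the region 18 were gained. The counts were 29 gained and 7 lost without WT T1 replicate 1, 31 and 6 without WT T1 replicate 2, 31 and 8 without WT T2 replicate 1, and 20 and 11 without WT T2 replicate 2.

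**Figure D4:**
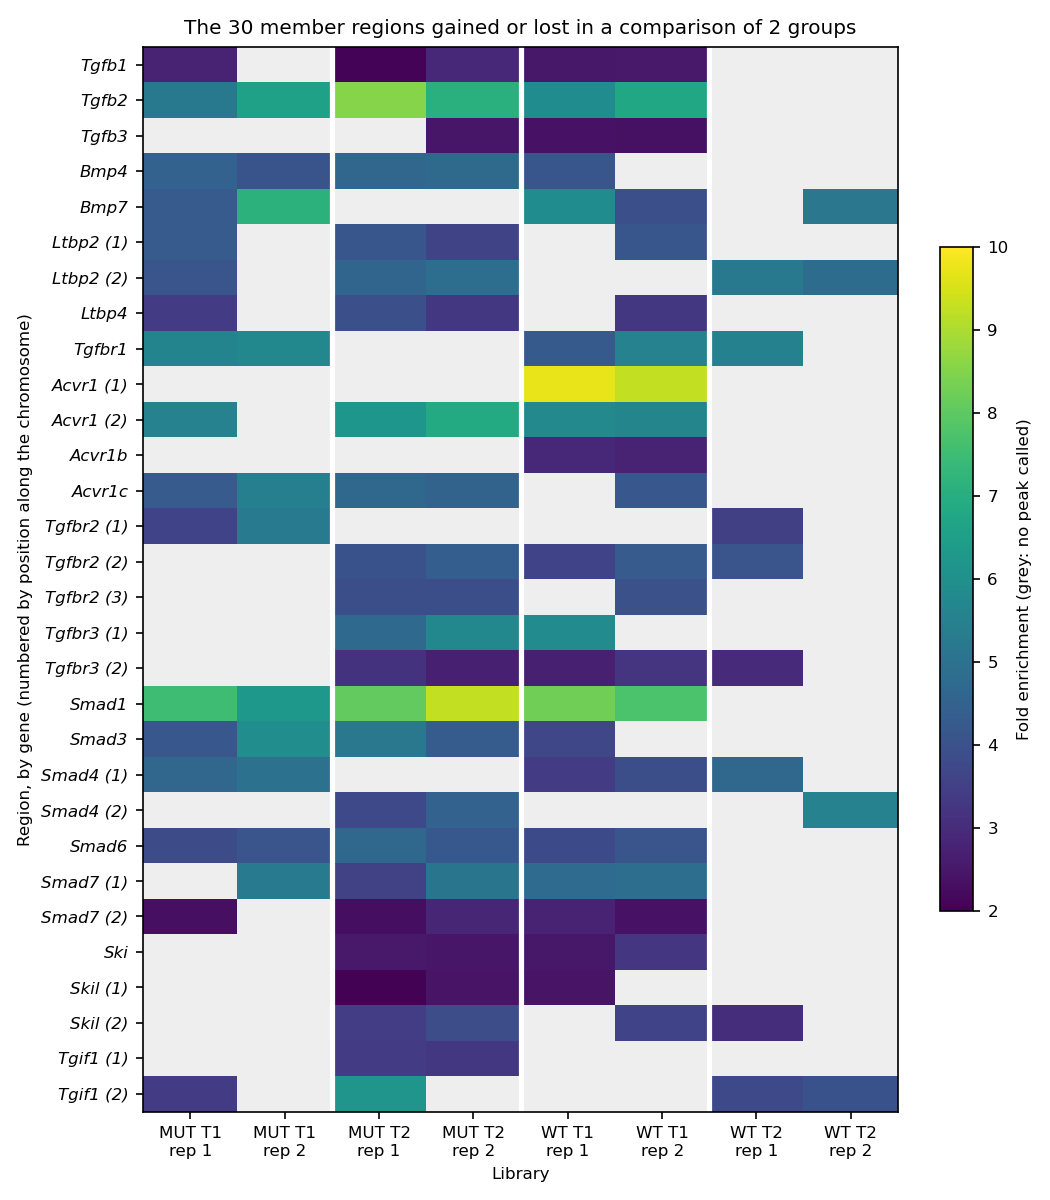
Fold enrichment (colour) of the 30 member regions gained or lost between 2 groups (rows, numbered along the chromosome within a gene) in each of the 8 libraries (columns); grey cells had no peak. The Acvr1 (1) row is coloured in WT T1 alone (9.73 and 9.25), and the Tgfb2, Smad1 and Smad6 rows are coloured in every library but those of WT T2.

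The 4 comparisons named 30 different regions at 21 of the 40 genes, 16 of them inside the gene span. None of the 20 whose gene has a tabled start overlapped a promoter window. Of the 31 member regions over a start site, 29 were called in all 8 libraries and could be neither gained nor lost. The absence of promoter windows was thus largely set beforehand. Of the 50 calls, 20 were made again under all 4 other settings tried (equal list length, thinned summits, a stricter q-value and an overlap of at least 0.5 of the region). These 20 calls covered 12 regions at 10 genes: Acvr1 and Ltbp2 with 2 each, and Ltbp4, Ski, Skil, Smad1, Smad6, Tgfb2, Tgfbr1 and Tgfbr2 with 1 each. Matching shares of all gene-assigned regions, named or made again in this way, are not given here. These counts are therefore not read as a trait of the members. Over the other 36 pathway genes and their 203 regions, 2 were gained (0.985%, against 1.19% of all regions) and 5 lost (2.46%, against 2.13%) for MUT T1 against WT T1. For MUT T2 against WT T2 it was 7 gained (3.45%, against 3.82%) and 1 lost (0.493%, against 0.429%). MUT T1 against MUT T2 gave 2 gained (0.985%, against 0.605%) and 5 lost (2.46%, against 1.74%), and WT T1 against WT T2 gave 7 gained (3.45%, against 3.82%) and 2 lost (0.985%, against 0.605%).

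Between all 4 MUT and all 4 WT libraries, 0 member regions were gained (against 0.204% of all regions) and 0 were lost (against 0.0528%). With thinned summits 1 was gained, without WT T1 replicate 1 it was 2 and without WT T1 replicate 2 it was 1. The 190 regions called in all libraries were also compared by rank, the percentile of a region's highest fold among the 49577 regions called in every library. Ranks remove a scale that differs between libraries, but they were not otherwise adjusted for depth. The shallowest libraries were both of WT T2 and replicate 2 of MUT T1, so depth was uneven between MUT and WT. The part of depth in the rank differences was not tested. All 49577 regions were put to a two-sided exact permutation test, whose 70 arrangements allow no p below 0.0286, and with Benjamini-Hochberg adjustment none passed (lowest adjusted p = 0.872). To pass, at least 57.1% of the regions would have had to reach that smallest p, so the absence of passing regions says little, and 1624 had an unadjusted p under 0.05. Of the 190 member regions, 0 ranked higher in every MUT than in every WT library (against 1.69% of regions) and 5 ranked lower (2.63%, against 1.56%). The median size of the rank difference was 3.81 percentile points for members and 4.03 for all regions.

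The 5 regions were at Smad6, Smad9, Bmp4, Smad4 and Fst, each with an exact permutation p = 0.0286 and an adjusted p = 0.872. Smad6, Smad9 and Bmp4 belong to the BMP branch, Smad4 serves both branches, and Fst acts on activins. The Smad6, Bmp4 and Smad4 regions lie outside the gene span and were assigned as nearest within 50 kb. That of Smad6 is downstream of the gene, 103.6 kb from its start. The Smad9 region covers its start site (chr3:54755023-54756674), where the rank was 18.6 and 29.3 in MUT T1 cells and 24.5 and 30.4 in MUT T2 cells, against 42.0 and 42.6 in WT T1 cells and 52.6 and 34.0 in WT T2 cells. Its mean was 25.7 in MUT and 42.8 in WT libraries, a difference of −17.1. The Smad6 region, chr9:63918126-63918845, ranked 41.3 and 61.8 in MUT T1 cells and 64.2 and 61.7 in MUT T2 cells, against 66.6 and 69.8 in WT T1 cells and 80.005 and 84.2 in WT T2 cells (means 57.2 and 75.2, difference −17.9). At Bmp4, chr14:46380127-46381209 ranked 28.7 and 14.1 in MUT T1 cells and 35.5 and 21.4 in MUT T2 cells, against 37.0 and 44.9 in WT T1 cells and 44.7 and 39.0 in WT T2 cells (means 24.9 and 41.4, difference −16.5). At Smad4, chr18:73622511-73623691 ranked 83.3 and 79.4 in MUT T1 cells and 80.3 and 65.4 in MUT T2 cells, against 85.9 and 87.3 in WT T1 cells and 84.8 and 87.1 in WT T2 cells (means 77.1 and 86.3, difference −9.19). The Fst region, chr13:114456830-114457660, was among the weakest in every library: it ranked 2.14 and 2.03 in MUT T1 cells and 1.65 and 1.06 in MUT T2 cells, against 2.33 and 2.81 in WT T1 cells and 5.01 and 3.23 in WT T2 cells (means 1.72 and 3.35, difference −1.63). In all 5 the lowest WT library stood above the highest MUT library, but no difference passed the adjustment.

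**Figure D5:**
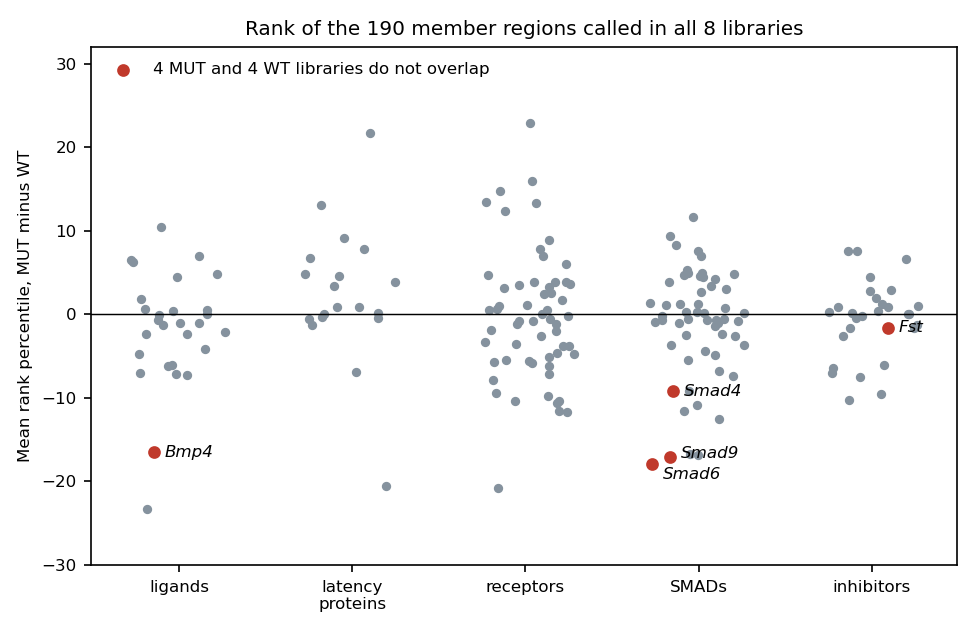
Mean rank percentile in the 4 MUT minus that in the 4 WT libraries (y axis, percentile points) for the 190 member regions called in all 8 libraries, by role (x axis; points are spread sideways to be seen). Differences run from −23.3 to 22.9, and the 5 coloured regions, all under 0, are those where the 2 sets of libraries do not overlap.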

How the data were processed

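ATAC-seq was run on 8 bone marrow HSC libraries from 5000 nuclei each, which were treated with the Nextera enzyme at 37 °C for 30 min before PCR, per the labels' protocols. Per the submitters' processing notes, the authors used Bowtie2, SAMtools and MACS2 on mm10; versions and any shift of cut sites are not given in the sources used here. The authors deposited 1 peak list per library, called per sample. Each deposited peak has a −log10 q-value, a score, a −log10 p-value and a fold enrichment, which is a ratio; all q-values were 0.001 or below.

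Read totals are not in the lists, so summit pileup and local background were solved from fold and p-value, with whole pileups (within 0.001 of the deposited −log10 p) for 99.99% of peaks in each library. Relative depth is the minimum of the local background over a library's peaks; it spanned 1.79-fold.

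Peaks were merged when overlapping by 1 bp and assigned to gene spans of the RefSeq GRCm38.p6 table, the build of mm10. Promoters of 300 bases came from RefSeq. Members and gene lists were chosen with earlier results of these data known. Every member was described; all gained or lost regions were named, or, above 10 in a direction, the 10 with the highest smaller fold, as were regions whose MUT and WT ranks did not overlap. Alternatives were lists of equal length, thinning of called summits to the lowest genome background, −log10 q of 5 or more, overlap of at least 0.5 of the region, 10 kb in place of 50 kb, each library left out, and 3 other rank tests. Scripts were tested on simulated data (Python 3.11.15, numpy 2.4.6, scipy 1.17.1, pandas 2.3.3).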

Additional observations from a re-analysis of the deposited data

Results flagged for a closer look

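The Ski region chr4:155197814-155198150 went opposite ways in the T1 and T2 populations. It was lost in MUT T1, where neither library called it, against WT T1, where its lower fold was 2.51, and it was gained in MUT T2, where its lower fold was 2.49, against WT T2, where neither library called it. The rule for gained and lost regions itself requires all libraries of a group to agree, so their agreement adds no support. The share of all regions that went opposite ways is not given here, and the difference between populations was not tested. The summits held 78 and 66 fragments in MUT T2 and 85 and 106 in WT T1, on a high local background. Of the 4 libraries without a call, the WT T2 libraries and MUT T1 replicate 2 were the 3 shallowest, and MUT T1 replicate 1 was the deepest of all.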

How the results depend on the processing

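With all 8 libraries kept, the counts of gained and lost member regions listed here moved by more than 1.5 times or from 0. The share in all libraries is listed where it left its 95% interval (47.5 to 58.0%). For libraries left out, whole ranges are given, moved or not. The cause was not tested beyond each setting's construction. Only member regions were counted under these settings, so the counts cannot be set against all regions. With lists of equal length, MUT T1 against WT T1 had 8 gained, MUT T2 against WT T2 8 gained and 8 lost, MUT T1 against MUT T2 7 gained and 3 lost, and WT T1 against WT T2 9 lost. With summits of called peaks thinned to the lowest genome background (no peaks were called anew), MUT T1 against WT T1 had 5 gained, MUT T2 against WT T2 5 lost, WT T1 against WT T2 4 lost and all MUT against all WT 1 gained. The stricter q-value gave 2 gained in MUT T1 against WT T1. Overlap of at least 0.5 of the region gave 18 gained in WT T1 against WT T2, 1 lost in MUT T2 against WT T2, and 36.1% of member regions in all libraries. Within 10 kb, 1 was lost in WT T1 against WT T2. With 1 library left out, the ranges of gained and lost were 7 to 21 and 7 to 27 (MUT T1 against WT T1), 29 to 39 and 4 to 9 (MUT T2 against WT T2), 8 to 20 and 13 to 35 (MUT T1 against MUT T2), 20 to 31 and 6 to 11 (WT T1 against WT T2), and 0 to 2 and 0 to 0 (all MUT against all WT); the share in all libraries was 54.1 to 55.6%. The number of regions with an adjusted rank difference was 0 in all of these, and with the rank of the highest −log10 p (lowest adjusted p of a member 0.789 to 0.983), but the smallest possible p makes a pass hardly possible, so these zeros say nothing about stability. Whether same-numbered libraries share animals is unknown. Replicate deviations correlated between groups at 0.0158 to 0.0764. The 2 highest values were for MUT T1 with MUT T2 (0.0764) and WT T1 with WT T2 (0.0577). With 2 libraries per group these correlations cannot decide it, and the rank test of all MUT against all WT treats the libraries as independent. With the number as a replicate block 0 regions passed, and stratified by population 0. The smallest possible p (0.125 and 0.0556) allowed no pass in either. Regions called in 1 library had a median fold of 3.77, those in all 8 a median of 6.34.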

Other observations

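Among the other pathway genes with a tabled start, 19 of 24 promoters were called in all 8 libraries. The strongest, chosen after their values were seen, were Cdkn2b, a cell-cycle inhibitor induced by TGF-beta (median fold 10.4), and Map3k7, the kinase of the SMAD-independent branch (10.1). Itgb8, an integrin subunit that releases latent TGF-beta, had 8.88, and Fkbp1a, which holds type I receptors inactive, 8.25. The immediate early target Junb had 2.59. The promoters of Gdf15, Mstn and Fstl3 were called in no library.

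Member windows called in all libraries differed in fold by CpG content, with a limit of 0.5 on the CpG ratio that was chosen after the values were seen. The 6 windows under the limit, at 5 genes (Acvr1c, Bmpr1b, Inhba, Tgfb2 and Eng), had a median fold of 9.62 (lowest 5.27, highest 11.6). The 25 at or above it had 5.98 (lowest 2.18, highest 8.47). Over all genes the medians were 7.69 for 1882 windows and 7.999 for 10395 windows. Windows of 1 gene can overlap, and the difference was not tested.

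Of the 29 member regions missing from exactly 1 library, 7 were missing from MUT T1 replicate 2 (24.1%, against 31.5% of all regions missing from exactly 1 library), 5 from WT T2 replicate 1 (17.2%, against 14.2%) and 9 from WT T2 replicate 2 (31.0%, against 32.1%), the 3 libraries of lowest background. None was missing from MUT T1 replicate 1, that of the highest background (0 of 29, against 3.17%). The members' shares lie near those of all regions.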
